A study of Homo sapiens with 18 samples.

Results

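Messenger RNA of ATF4 and of 9 genes that it is known to control, ASNS, PSAT1, PHGDH, CHAC1, TRIB3, DDIT3, DDIT4, SESN2 and VLDLR, was measured in EpCAM+ hepatocellular carcinoma (HCC) cells. The genes were chosen by name, as transcripts of the amino acid stress response, with earlier results of these data known. They are 10 of 19720 genes named on the array. The array holds 12 probes for them, a pair each for CHAC1 and VLDLR and 1 for every other gene. The cells came from the established human HCC lines Huh1 and Huh7, which were left as control or treated for 48 hours with disulfiram (DSF, 0.1 µM), an aldehyde dehydrogenase inhibitor, or with the fluoropyrimidine 5-FU (1 µM), and cells with the surface protein EpCAM were isolated by sorting, which the labels list after the treatment. Each of the 6 groups had 3 one-color arrays, 18 in all. The methods pair DSF with copper chloride and do not say what the control cells received, so DSF and copper cannot be told apart. Each line is a single cell line, and only the EpCAM+ fraction was hybridized.

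ATF4 is a transcription factor of the integrated stress response. When amino acids run short, proteins misfold in the endoplasmic reticulum (ER) or heme is lacking, a kinase phosphorylates the initiation factor eIF2α, bulk translation falls and the ATF4 message is translated more, so much of its control lies above the transcript level that arrays measure. The protein pairs with C/EBP factors and switches on genes for amino acid synthesis and uptake, together with feedback and death-related factors. In liver the same program also answers mitochondrial stress and protein shortage in the diet.

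The site that ATF4 and C/EBP factors share, the C/EBP-ATF response element, has the core TGATGNAA, where N is any base. Windows of 250 bases before to 50 bases after each RefSeq transcript start (GRCh38.p14) were searched for it on both strands, the reverse strand being read as TTNCATCA. A match lay in 2 of the 10 genes, ASNS and CHAC1, against 1217 of 27305 genes with a window (4.46%), or 1270 of 35116 windows (3.62%). The 250 bases before both starts are shown because they hold the only matches among these genes. The first window ends at the ASNS start (chr7:97872409-97872658, minus strand) and the second at the CHAC1 start (chr15:40953221-40953470, plus strand). Each is written 5′ to 3′ along the gene, and capitals mark the match.
ASNS: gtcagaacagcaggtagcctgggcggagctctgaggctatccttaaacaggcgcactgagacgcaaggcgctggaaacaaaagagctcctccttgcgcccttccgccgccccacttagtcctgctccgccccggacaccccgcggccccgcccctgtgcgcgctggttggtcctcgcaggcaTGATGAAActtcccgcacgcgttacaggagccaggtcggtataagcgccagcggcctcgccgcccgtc
CHAC1: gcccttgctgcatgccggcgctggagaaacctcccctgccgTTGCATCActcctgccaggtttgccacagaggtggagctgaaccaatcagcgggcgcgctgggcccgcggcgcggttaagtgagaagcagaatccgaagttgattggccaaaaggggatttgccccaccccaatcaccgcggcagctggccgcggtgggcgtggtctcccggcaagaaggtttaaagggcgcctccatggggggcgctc
The ASNS match, TGATGAAA, begins at position -68 from the start, and the CHAC1 match, on the opposite strand and so read here as TTGCATCA, begins at position -209. For the other 8 genes these letters are not in the windows searched, and nothing was tested beyond them.

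A level below is the log2 of the scanner signal minus the array's own 75th percentile, and a change is a difference of such levels, tested with limma in a fit of all 18 arrays. A gene was called when its p, adjusted by Benjamini-Hochberg over the 29894 probes tested, was under 0.05. The brighter probe of each gene was well above background on 18 of 18 arrays. All 11 liver tumour line markers, EPCAM, AFP and ALB among them, were well above background on every array. Of 5 endothelial markers, PECAM1 and CDH5 were well above background on 18 arrays, VWF on 13, and KDR and CLEC14A on 0. The leukocyte markers CD14, CD68, CD79A and PTPRC and the stromal marker LUM were also above it on 18. Of the other stromal markers, COL1A1 and DCN were above it on 11 arrays, PDGFRB on 5, COL1A2 on 2 and COL3A1 on 1. The leukocyte marker CD3E was above it on 6, and LYZ had no probe named for it. Replicate arrays correlated at 0.989 to 0.997. The arrays lay on 3 slides: slide 1 held every Huh1 array but 1 DSF array, slide 2 held that array with the Huh7 control and 5-FU arrays and 1 Huh7 DSF array, and slide 3, scanned on another day, held the other 2 Huh7 DSF arrays. Huh1 control replicate 1 and Huh7 5-FU replicate 1 stood apart from their replicates in several of the genes, and results are given without them where that changed a call. Measured from the mean of 6 spike-in probes, the 75th percentile was at -3.29 to -2.85 (log2) with 5-FU, at -4.31 to -3.78 with DSF and at -4.10 to -3.94 in control. Scaled on the spike-ins, the median change of all probes was 0.79 after 5-FU in Huh1 and 0.94 in Huh7, against -0.03 and -0.05 here, and 0.14 and -0.09 after DSF, against 0.00 and 0.08. Every change after 5-FU is therefore relative to the bulk of the probes. In sorted populations, fewer cells with a transcript and less of it per cell cannot be told apart.

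**Figure D1:**
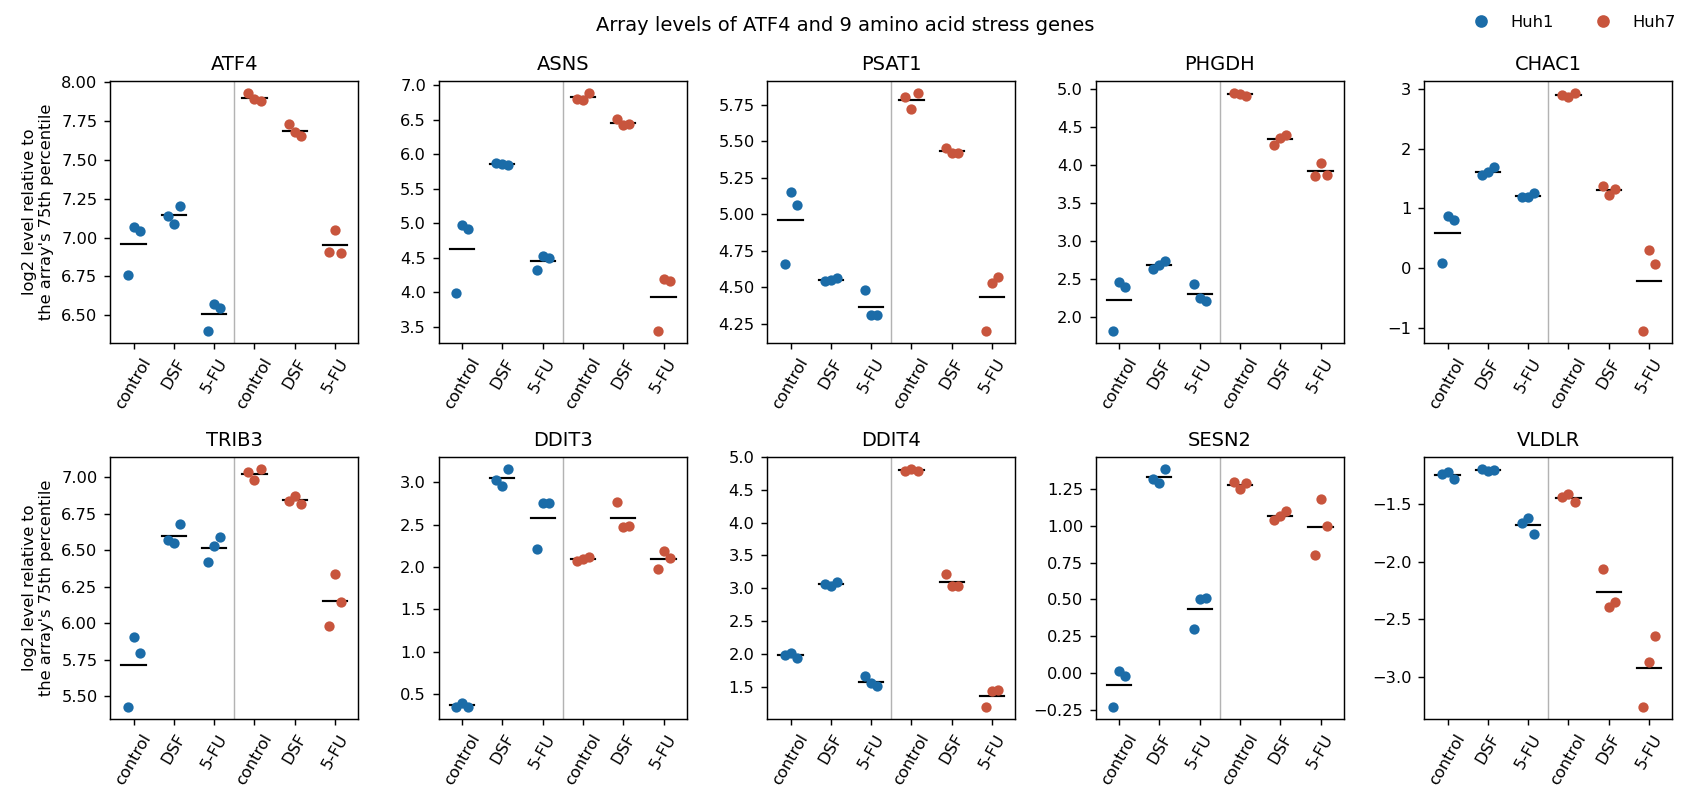
Levels of the 10 genes by group, in log2 units relative to the 75th percentile of the array. Each point is 1 array (blue for Huh1, red for Huh7), each line is the mean of 3 arrays, and the vertical axes differ between panels. The Huh7 control arrays lie above the Huh1 control arrays in every panel but that of VLDLR.

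Among the control arrays most of the genes stood higher in Huh7 than in Huh1. In control cells 9 of the 10 were called higher in Huh7 and 0 lower, where 34.5% of all probes were called higher and 36.2% lower. Their median difference was 1.55, against -0.05 for all probes. DDIT4 differed by 2.81 (SE 0.07, 7.02-fold, adjusted p = 1.39e-13) and PHGDH by 2.71 (SE 0.13, 6.56-fold). CHAC1, ASNS, DDIT3, SESN2, TRIB3, ATF4 and PSAT1 differed by 2.30, 2.19, 1.73, 1.36, 1.31, 0.94 and 0.83 in that order. VLDLR, a lipoprotein receptor gene, differed by -0.20 (95% interval -0.46 to 0.06, adjusted p = 0.157). The control arrays of the lines lay on different slides, and 1 Huh1 DSF array on slide 2 was the only array of one line on a slide of the other. With slide as a block the differences were 2.76 for DDIT4, 2.64 for PHGDH, 2.22 for ASNS, 2.20 for CHAC1 and 0.82 to 1.57 for the other 5, and 9 genes were again called higher and 0 lower.

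After DSF most of the genes were called higher in Huh1 and most were called lower in Huh7, but only PHGDH, CHAC1 and DDIT4 were both. Among the 10 genes in Huh1, 7 were called higher (ASNS, PHGDH, CHAC1, TRIB3, DDIT3, DDIT4 and SESN2) and 1 lower (PSAT1), where 23.9% of all probes were called higher and 20.3% lower. In Huh7, 1 was called higher (DDIT3) and 6 lower (ATF4, PSAT1, PHGDH, CHAC1, DDIT4 and VLDLR), against 27.3% and 19.4% of all probes. The median change was 0.95 in Huh1 and -0.36 in Huh7, beside 0.00 and 0.08 over all probes. By at least 2-fold, 5 were higher and 0 lower in Huh1 (8.25% and 2.7% of all probes), and 0 were higher and 2 lower in Huh7 (4.97% and 4.98%). With all DSF arrays above all control arrays, or all below, there were 9 and 1 genes in Huh1 (30% and 29.1% of probes), and 1 and 9 in Huh7 (33.7% and 26.8%). Within slide 1 the Huh1 changes were 2.63 for DDIT3, 1.39 for SESN2, 1.24 for ASNS, 1.06 for DDIT4 and 0.99 for CHAC1 (2 DSF arrays against 3). Within slide 2 the Huh7 changes were -1.57 for DDIT4, -1.53 for CHAC1, -0.67 for PHGDH, -0.62 for VLDLR and 0.68 for DDIT3 (1 array against 3). With slide as a block fewer genes were called lower in Huh7, ATF4 and PSAT1 losing their calls. Of the 11 liver tumour line markers, 9 were called lower and 1 higher after DSF in Huh1, and 6 lower and 2 higher in Huh7. KRT19 went from a mean level of 2.90 in control to 4.89 in Huh1. In Huh7 KRT8 went from 4.80 to 5.23 and KRT18 from 7.28 to 7.79. EPCAM, the sorting marker, went from 2.62 to 1.96 in Huh1 and from 5.49 to 5 in Huh7. GPC3 went from 5.6 to 4.23 in Huh1 and from 5.6 to 4.7 in Huh7. In Huh1 APOA1 went from 4.82 to 2.79 and TTR from 4.17 to 2.46. The summed level of the markers in Huh1 ran from 9.51 to 9.62 with DSF and from 9.85 to 9.93 in control. In Huh7 it ran from 10.10 to 10.24 with DSF and from 10.27 to 10.29 in control. The part of these markers in the DSF result was not tested.

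After 5-FU the genes fell in Huh7 relative to the bulk of probes. There 0 of the 10 were called higher and 9 lower (27.3% and 29.7% of all probes), all but DDIT3, with a median change of -1.18, but scaling on the spike-ins gave 2 higher and 5 lower, and turned ATF4, TRIB3, DDIT3 and SESN2 to above 0. By at least 2-fold 0 were higher and 6 lower there (8.77% and 8.57% of all probes), and 0 lay above and 9 below all control arrays (31.4% and 34.9%). In Huh1, 3 were called higher (TRIB3, DDIT3 and SESN2) and 4 lower (ATF4, PSAT1, DDIT4 and VLDLR), against 22.2% and 26% of all probes, and scaling on the spike-ins gave 9 higher and 0 lower. By at least 2-fold 1 was higher and 0 lower in Huh1 (5.59% and 3.43%), and 4 lay above and 4 below all control arrays (25.3% and 30.8%). All 5-FU arrays of a line lay on the slide of its control arrays. Of all calls under the spike-in scaling, 98.4% in Huh1 and 95.7% in Huh7 were toward higher, against 46.1% and 47.9% here. Stromal markers moved with 5-FU in Huh7. Their summed level over 6 genes ran from 1.60 to 1.68 on the 5-FU arrays and from -0.98 to -0.89 on the Huh7 control arrays, with 4 of 6 well above background on every 5-FU array and 2 of 6 on every control array. LUM, a matrix proteoglycan gene, went from a mean level of -1.23 in control to 1.49, and DCN, another, was at least 9.15-fold higher. Leukocyte markers summed to 2.42 to 2.76 against 2.07 to 2.12 in control, and endothelial markers to -1.22 to -1 against -1.95 to -1.83. Only 1 of the 5 leukocyte markers tested had a change above 0, CD68, which went from 0.06 to 1.65. CD14, CD79A, PTPRC and CD3E had lower means with 5-FU, and the median change of the list was -0.06. Of the endothelial markers, PECAM1 went from -2.47 to -1.45, CDH5 from -4.15 to -3.98 and VWF from -5.35 to -5.87. Of the 3 tested, 1 was called higher and 1 lower, and KDR and CLEC14A were not well above background. The part of these markers in the 5-FU result was not tested.

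**Figure D2:**
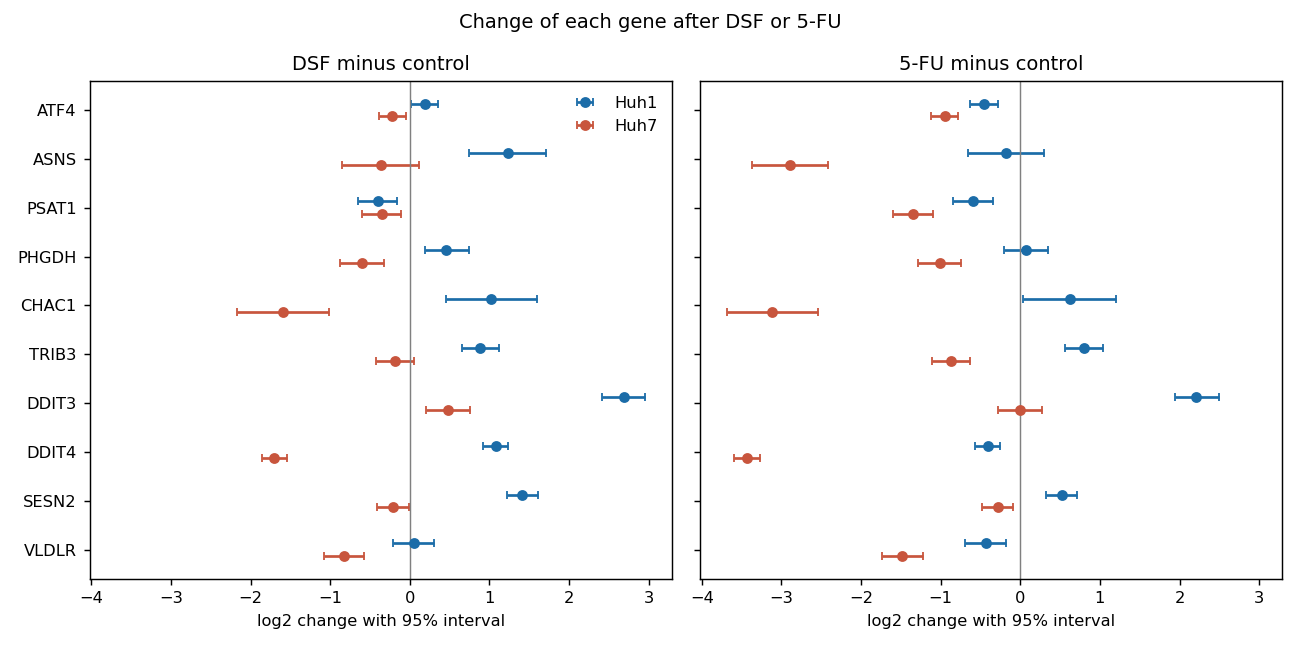
Change of each gene after DSF (left) and after 5-FU (right), as treated minus control in log2 units of levels scaled on the 75th percentile. Points are limma estimates from 3 arrays against 3, bars are 95% intervals, blue is Huh1 and red is Huh7. After DSF 8 genes lie to the right of 0 in Huh1 and to the left in Huh7 (VLDLR, at 0.05 in Huh1, falls below 0 there under quantile and median scaling), DDIT3 lies to the right in both and PSAT1 to the left in both, while the 5-FU panel shifts to the right under spike-in scaling.

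ATF4 itself changed less than most of its targets. Its levels in Huh1 were 6.76, 7.07 and 7.04 in control, 7.14, 7.09 and 7.2 with DSF, and 6.40, 6.57 and 6.55 with 5-FU. In Huh7 they were 7.93, 7.89 and 7.88 in control, 7.73, 7.68 and 7.65 with DSF, and 6.91, 7.05 and 6.90 with 5-FU. The DSF arrays lay above every control array in Huh1 and below every one in Huh7. The change with DSF was 0.19 in Huh1 (SE 0.08, adjusted p = 0.0754) and -0.22 in Huh7 (SE 0.08, 1.16-fold lower, adjusted p = 0.037). The Huh1 change was 0.09 without Huh1 control replicate 1, 0.01 under median scaling, and called without Huh1 control replicate 2 (0.24, adjusted p = 0.0388), under quantile normalization (0.23, adjusted p = 0.0461) and in a trended robust fit (0.19, adjusted p = 0.0429). The call in Huh7 was lost with slide as a block (-0.18, adjusted p = 0.307), without the slide 3 arrays (-0.18, adjusted p = 0.324) and without any of 5 of the 6 arrays compared. With 5-FU, ATF4 changed by -0.45 in Huh1 (SE 0.08, adjusted p = 0.000325) and -0.95 in Huh7 (SE 0.08, 1.93-fold lower, adjusted p = 1.81e-07), but by 0.37 and 0.04 with scaling on the spike-ins, and by -0.10 in Huh1 under quantile normalization (adjusted p = 0.391).

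Among the enzymes of amino acid synthesis, ASNS, which makes asparagine from aspartate and glutamine, followed DSF in Huh1. Its levels there were 3.99, 4.98 and 4.92 in control, 5.88, 5.86 and 5.85 with DSF, and 4.33, 4.52 and 4.50 with 5-FU. In Huh7 they were 6.80, 6.79 and 6.89 in control, 6.51, 6.43 and 6.44 with DSF, and 3.44, 4.20 and 4.17 with 5-FU. Huh1 control replicate 1 and Huh7 5-FU replicate 1 were low within their groups, and the DSF arrays of Huh1 lay above all its control arrays. ASNS rose with DSF in Huh1 by 1.23 (SE 0.22, 2.35-fold, adjusted p = 0.000458) and changed by -0.36 in Huh7 (SE 0.22, adjusted p = 0.198). That fall in Huh7 was called without the arrays that stood apart (adjusted p = 0.000216). Neither array is in that comparison, and the fit shares its estimate of the spread over all groups. With 5-FU in Huh7 ASNS fell by 2.89 (SE 0.22, 7.41-fold lower, adjusted p = 8.22e-08), or fell by 1.90 with scaling on the spike-ins. In Huh1 it changed by -0.18 with 5-FU (adjusted p = 0.542), by -0.50 without Huh1 control replicate 1, and by 0.64 with scaling on the spike-ins. The DSF change in Huh1 was 0.91 without Huh1 control replicate 1, and the 5-FU change in Huh7 -2.64 without Huh7 5-FU replicate 1. ASNS, whose window above holds a match, thus had its highest group mean in Huh7 control (6.82) and its lowest in Huh7 with 5-FU (3.94).

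PHGDH encodes the enzyme of the first step of serine synthesis from a glycolytic intermediate, and PSAT1 that of the next step. PHGDH was at 1.81, 2.46 and 2.39 in Huh1 control, 2.63, 2.68 and 2.73 with DSF, and 2.43, 2.24 and 2.21 with 5-FU. In Huh7 PHGDH was at 4.95, 4.94 and 4.91 in control, 4.26, 4.36 and 4.39 with DSF, and 3.86, 4.03 and 3.87 with 5-FU. No Huh1 array reached any Huh7 array. PHGDH rose with DSF in Huh1 by 0.46 (SE 0.13, adjusted p = 0.00911), 0.26 without Huh1 control replicate 1 and not called under median scaling (0.29, adjusted p = 0.108), and in Huh7 it fell by 0.60 (1.51-fold lower, adjusted p = 0.00171). With 5-FU it changed by 0.07 in Huh1 (adjusted p = 0.681), by -0.13 without Huh1 control replicate 1, and by -1.01 in Huh7 (SE 0.13, 2.02-fold lower), where scaling on the spike-ins left -0.03. PSAT1 was at 4.66, 5.15 and 5.06 in Huh1 control, 4.54, 4.55 and 4.56 with DSF, and 4.48, 4.31 and 4.31 with 5-FU. In Huh7 PSAT1 was at 5.80, 5.72 and 5.83 in control, 5.45, 5.42 and 5.42 with DSF, and 4.20, 4.53 and 4.57 with 5-FU. PSAT1 was lower on every DSF array than on any control array in both lines. Its changes with DSF were -0.40 in Huh1 (SE 0.12, adjusted p = 0.0107) and -0.35 in Huh7 (SE 0.12, adjusted p = 0.0219). The Huh1 call was lost without Huh1 control replicate 2 (-0.31), under spike-in scaling (-0.27, adjusted p = 0.179) and in a fit of the compared groups alone (-0.40, adjusted p = 0.0561). The Huh7 call was lost with slide as a block (-0.33, adjusted p = 0.189) and without any of 4 of the 6 arrays compared. With 5-FU PSAT1 changed by -0.59 in Huh1, or 0.24 under spike-in scaling, and by -1.35 in Huh7 (SE 0.12, 2.55-fold lower, adjusted p = 2.04e-07), or -0.36 under spike-in scaling.

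CHAC1 encodes an enzyme that breaks down glutathione, and it moved in opposite directions in the lines after DSF. Its brighter probe read 0.08, 0.88 and 0.81 in Huh1 control, 1.55, 1.60 and 1.69 with DSF, and 1.19, 1.19 and 1.25 with 5-FU. In Huh7 it read 2.89, 2.87 and 2.93 in control, 1.37, 1.23 and 1.32 with DSF, and -1.05, 0.31 and 0.07 with 5-FU. The groups of a line did not overlap, although Huh1 control replicate 1 and Huh7 5-FU replicate 1 were the low arrays of theirs. CHAC1 rose with DSF in Huh1 by 1.02 (SE 0.27, 2.03-fold, adjusted p = 0.00638) and in Huh7 it fell by 1.59 (SE 0.27, 3.01-fold lower, adjusted p = 0.000263). With 5-FU CHAC1 in Huh7 fell by 3.12 (SE 0.27, 8.67-fold lower, adjusted p = 2.28e-07) and changed in Huh1 by 0.62 (adjusted p = 0.071), which without the arrays that stood apart became 0.37 and was called (adjusted p = 0.00153). Spike-in scaling gave -2.13 in Huh7 and 1.45 in Huh1. Without Huh1 control replicate 1 the DSF change in Huh1 was 0.77 (adjusted p = 0.0335), and without Huh7 5-FU replicate 1 the 5-FU change in Huh7 was -2.70. The dimmer CHAC1 probe gave changes of the same sign, 0.95 and -1.58 with DSF and 0.43 and -3.17 with 5-FU in Huh1 and Huh7, of which those in Huh7 were called.

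DDIT3, which encodes the pro-apoptotic factor CHOP, and TRIB3, a pseudokinase gene induced by ATF4 and CHOP whose product dampens both, are late factors of the response. DDIT3 was at 0.35, 0.39 and 0.35 in Huh1 control, 3.03, 2.96 and 3.16 with DSF, and 2.21, 2.76 and 2.75 with 5-FU. In Huh7 DDIT3 was at 2.07, 2.09 and 2.12 in control, 2.77, 2.47 and 2.48 with DSF, and 1.97, 2.19 and 2.11 with 5-FU. The Huh1 control arrays were the lowest of all 18, and every other group lay well above them. DDIT3 rose with DSF by 2.69 in Huh1 (SE 0.13, 6.44-fold, adjusted p = 1.61e-09) and by 0.48 in Huh7 (SE 0.13, 1.40-fold, adjusted p = 0.00673), the latter not called under spike-in scaling (0.31, adjusted p = 0.222). With 5-FU DDIT3 rose in Huh1 by 2.21 (SE 0.13, 4.63-fold, adjusted p = 2.76e-08) and changed by -0.01 in Huh7 (95% interval -0.28 to 0.27), where spike-in scaling gave 0.98. TRIB3 was at 5.43, 5.91 and 5.80 in Huh1 control, 6.57, 6.55 and 6.68 with DSF, and 6.42, 6.53 and 6.59 with 5-FU. In Huh7 TRIB3 was at 7.04, 6.98 and 7.06 in control, 6.84, 6.87 and 6.82 with DSF, and 5.98, 6.34 and 6.15 with 5-FU. Both drugs left TRIB3 above all control arrays in Huh1 and below all of them in Huh7. TRIB3 rose in Huh1 by 0.88 with DSF (SE 0.11, adjusted p = 1.82e-05) and by 0.80 with 5-FU (SE 0.11, adjusted p = 4.35e-05). In Huh7 the change was -0.19 with DSF (SE 0.11, adjusted p = 0.18) and -0.87 with 5-FU (SE 0.11, adjusted p = 1.05e-05), the latter 0.12 under spike-in scaling.

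DDIT4 and SESN2 encode stress-induced inhibitors of mTORC1, the kinase complex that couples amino acid supply to growth. DDIT4 was at 1.99, 2.02 and 1.94 in Huh1 control, 3.06, 3.04 and 3.10 with DSF, and 1.66, 1.56 and 1.51 with 5-FU. In Huh7 DDIT4 was at 4.78, 4.82 and 4.79 in control, 3.22, 3.03 and 3.04 with DSF, and 1.2, 1.44 and 1.46 with 5-FU. Replicates were close, and the lines, far apart in control, were near the same level with DSF. DDIT4 rose with DSF in Huh1 by 1.08 (SE 0.07, 2.12-fold, adjusted p = 7.3e-08) and in Huh7 it fell by 1.70 (SE 0.07, 3.25-fold lower, adjusted p = 8.64e-10). The DSF groups of the lines then differed by 0.03 (adjusted p = 0.745). With 5-FU DDIT4 in Huh7 fell by 3.43 (SE 0.07, 10.8-fold lower, adjusted p = 1.38e-12), the largest fall among the 10 genes, or fell by 2.44 under spike-in scaling. In Huh1 it changed by -0.41 with 5-FU (adjusted p = 0.000447), or 0.42 under spike-in scaling. SESN2 was at -0.23, 0.01 and -0.02 in Huh1 control, 1.32, 1.29 and 1.39 with DSF, and 0.30, 0.50 and 0.51 with 5-FU. In Huh7 SESN2 was at 1.30, 1.25 and 1.29 in control, 1.04, 1.07 and 1.1 with DSF, and 0.80, 1.18 and 1 with 5-FU. In Huh1 both drugs lifted every array above control, and in Huh7 all treated arrays lay below control. SESN2 rose in Huh1 by 1.41 with DSF (SE 0.09, 2.66-fold, adjusted p = 4.11e-08) and by 0.52 with 5-FU (SE 0.09, adjusted p = 0.000342). In Huh7 it changed by -0.21 with DSF (SE 0.09, adjusted p = 0.077), called without the arrays that stood apart (adjusted p = 0.0201). Neither array is in that comparison, and the fit shares its estimate of the spread over all groups. SESN2 changed by -0.28 with 5-FU in Huh7 (adjusted p = 0.0161), which spike-in scaling turned to 0.70 and which was not called without Huh7 5-FU replicate 1 (-0.19, adjusted p = 0.0813).

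VLDLR encodes the very low density lipoprotein receptor, whose induction by ATF4 is tied to lipid uptake in stressed liver. Its brighter probe read -1.24, -1.22 and -1.28 in Huh1 control, -1.19, -1.21 and -1.2 with DSF, and -1.66, -1.62 and -1.76 with 5-FU. In Huh7 it read -1.44, -1.41 and -1.48 in control, -2.06, -2.39 and -2.35 with DSF, and -3.26, -2.87 and -2.65 with 5-FU. In Huh7 the treated arrays all lay below control, and in Huh1 the DSF and control arrays were nearly level. The change with DSF was 0.05 in Huh1 (95% interval -0.21 to 0.31) and -0.82 in Huh7 (SE 0.12, 1.77-fold lower, adjusted p = 7.76e-05). With 5-FU VLDLR changed by -0.43 in Huh1, or 0.39 under spike-in scaling, and by -1.48 in Huh7 (SE 0.12, 2.79-fold lower, adjusted p = 1.3e-07), or -0.49 under spike-in scaling. The other VLDLR probe was well above background on 4 of 18 arrays, all in Huh1, and gave no call against control. With both probes averaged, the 5-FU change in Huh1 was -0.28 and not called (adjusted p = 0.0643).

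The difference between the lines was tested itself, with the Huh1 change subtracted from the Huh7 change. As the genes were chosen with earlier results of these data known, the counts describe them and are not an independent test. For DSF, 9 of the 10 genes were called lower in Huh7 than in Huh1 and 0 higher, where 19.2% of all probes were called lower and 21.1% higher, and 7 passed 2-fold as well (9.17% of all probes lower and 4.89% higher). The differences were widest for DDIT4 (-2.78, SE 0.11, adjusted p = 5.95e-10), CHAC1 (-2.61, SE 0.38, adjusted p = 0.000108) and DDIT3 (-2.21, SE 0.18, adjusted p = 8.16e-07). SESN2, ASNS, TRIB3, PHGDH, VLDLR and ATF4 followed at -1.62, -1.60, -1.07, -1.06, -0.87 and -0.40. The ATF4 call was lost with slide as a block (-0.33, adjusted p = 0.118) and under median scaling (-0.25, adjusted p = 0.183), and the VLDLR call with both probes averaged (-0.36, adjusted p = 0.0916). PSAT1 differed by 0.05 (95% interval -0.30 to 0.40), or by -0.26 under spike-in and -0.06 under quantile scaling. Spike-in scaling moved the median difference of all probes from 0.05 to -0.25 and median scaling to 0.21, and the counts of the 10 genes were 9 and 8 lower, with 0 higher. For 5-FU all 10 genes were called lower in Huh7 than in Huh1 (17.8% of all probes called lower and 18.8% higher), from -0.50 for ATF4 to -3.74 for CHAC1 (SE 0.38, adjusted p = 5.56e-06), 7 of them by 2-fold as well (6.59% of all probes lower and 5.94% higher). Under spike-in scaling 9 were called lower, with ATF4 at -0.34 (adjusted p = 0.265), and under quantile normalization ATF4 was at -0.31 (adjusted p = 0.0594). The 5-FU and DSF differences share the control arrays of both lines.

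**Figure D3:**
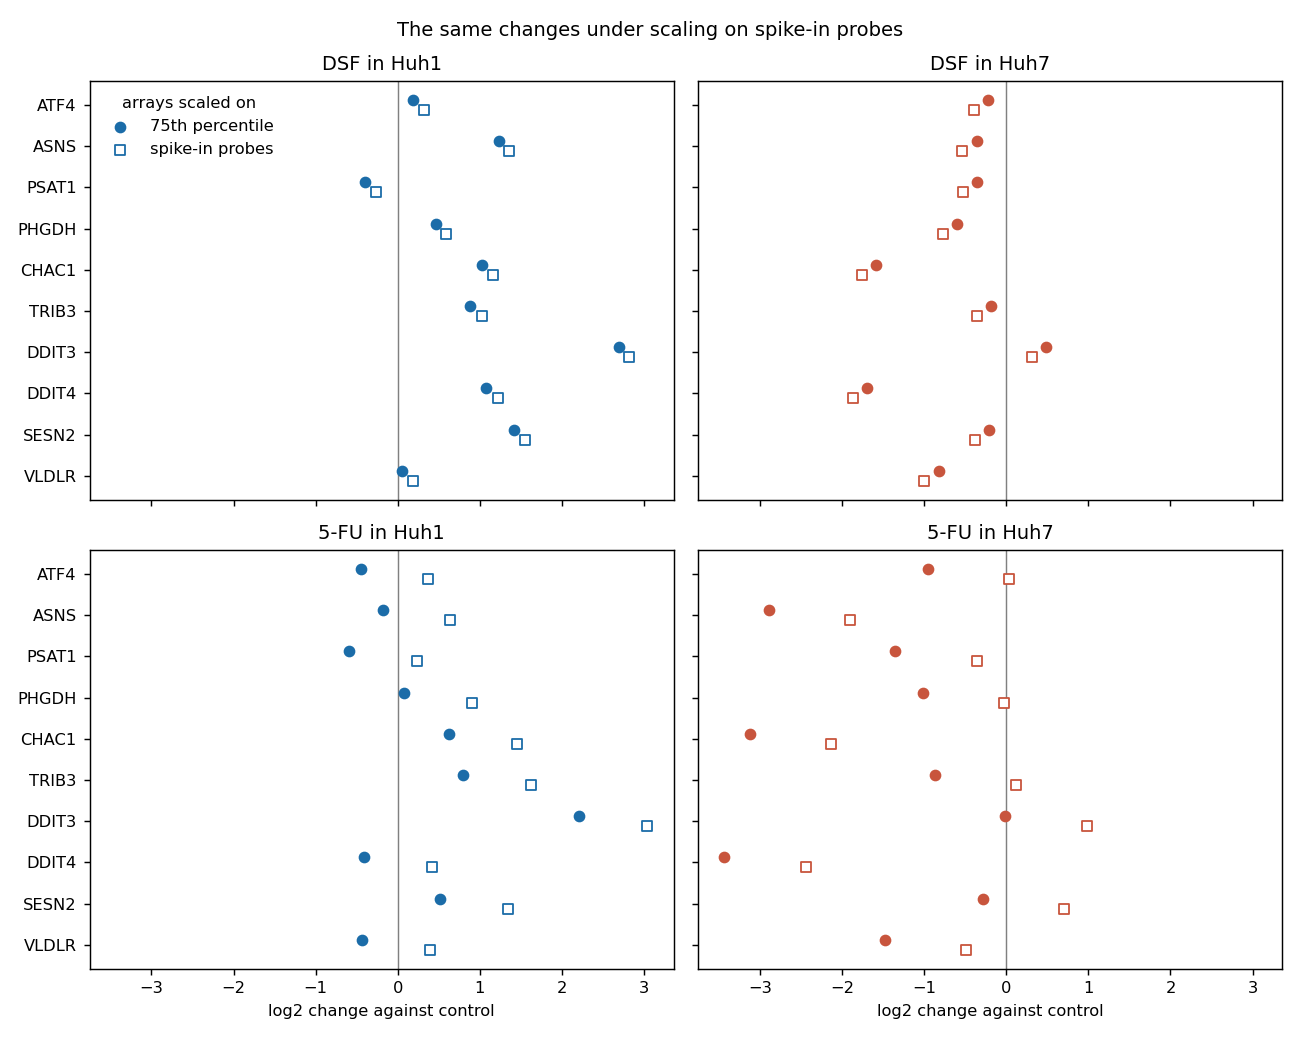
Change of each gene against control with arrays scaled on their 75th percentile (filled circles) and on 6 spike-in probes (open squares), in log2 units, for each drug and line. The DSF changes keep their signs, and the 5-FU changes move up together, so that ATF4, ASNS, PSAT1, DDIT4 and VLDLR in Huh1 and ATF4, TRIB3, DDIT3 and SESN2 in Huh7 change sign.

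Set against 5-FU within a line, DSF left most of the genes higher under scaling on the 75th percentile, but not under scaling on the spike-ins. By the first 7 of 10 were called higher with DSF in Huh1 (28.7% of all probes) and 9 of 10 in Huh7 (35.6%), with 0 lower in either (20.6% and 25%). Quantile normalization gave 7 and 6 higher in Huh1 and Huh7, and median scaling 4 and 9, with 0 lower. Scaling on the spike-ins gave 2 higher with 2 lower in Huh1, and 2 higher with 6 lower in Huh7, where all probes shifted by -0.61 and -1.04 at the median. The genes higher with DSF under both scalings, by call, were ASNS and DDIT4 in each line. ASNS differed by 1.41 in Huh1 (SE 0.22, 2.66-fold, adjusted p = 0.000135) and 2.52 in Huh7 (SE 0.22, 5.75-fold, adjusted p = 3.34e-07). DDIT4 differed by 1.49 (SE 0.07, 2.80-fold, adjusted p = 2.6e-09) and 1.73 (SE 0.07, 3.31-fold, adjusted p = 3.55e-10). With scaling on the spike-ins these differences shrank to 0.72 and 1.36 for ASNS, and to 0.80 and 0.57 for DDIT4, in Huh1 and Huh7.

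Ordered by level over the 6 groups, most of the genes were highest in Huh7 control. That held for ATF4, ASNS, PSAT1, PHGDH, CHAC1, TRIB3 and DDIT4, with Huh7 DSF next for all of these but CHAC1. The step from Huh7 control to the next group was not called for ASNS (0.36, adjusted p = 0.198) and TRIB3 (0.19, adjusted p = 0.18), and was widest for DDIT4 (1.70). DDIT3, SESN2 and VLDLR were highest in Huh1 with DSF. Of these, SESN2 stood above Huh7 control by 0.05 (adjusted p = 0.616) and VLDLR above Huh1 control by 0.05 (adjusted p = 0.78). The lowest group was Huh7 with 5-FU for ASNS, CHAC1, DDIT4 and VLDLR, Huh1 with 5-FU for ATF4 and PSAT1, and Huh1 control for PHGDH, TRIB3, DDIT3 and SESN2.

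Over the 12 treated arrays, each taken against the control mean of its line, every gene followed the mean of the other 9, with a Pearson r from 0.75 (PSAT1) and 0.85 (ATF4) to 0.99 (DDIT4). These arrays share their control means, and the points fall into 4 groups of 3, so the values are descriptions. Among 10884 other genes whose group means spanned at least 2-fold, those most like the mean of the 10 were ULBP1, a gene for a ligand of the NKG2D receptor of natural killer cells (r = 0.997), CSNK2A2, a casein kinase 2 catalytic subunit gene (0.994), RHEBL1, a gene related to the mTORC1 activator RHEB (0.994), CDKL3 (0.992) and RHBDD1 (0.991). With DSF ULBP1 changed by 3.07 in Huh1 and -0.87 in Huh7 (adjusted p = 0.0518 by limma, not called), and with 5-FU by 1.61 and -3.56. With DSF in Huh7 CDKL3 changed by 0.02 (adjusted p = 0.879), and CSNK2A2, RHEBL1 and RHBDD1 by -0.38, -0.56 and -0.43. With 5-FU in Huh1 CSNK2A2 changed by -0.01 and RHBDD1 by 0.01, and RHEBL1 and CDKL3 by 0.53 and 0.79. In Huh1 control ULBP1 was well above background on 2 of 3 arrays.

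Upstream of ATF4, 14 genes for the eIF2α kinases, eIF2α and its phosphatases were tested. The counts of this and the following lists stand beside the shares of all probes called higher and lower, which were 23.9% and 20.3% with DSF in Huh1, 27.3% and 19.4% with DSF in Huh7, 22.2% and 26% with 5-FU in Huh1, and 27.3% and 29.7% with 5-FU in Huh7. With DSF, Huh1 had 2 genes called higher and 5 called lower, and Huh7 had 4 and 4. The gene that moved most was PPP1R15A, which encodes GADD34, the stress-induced phosphatase subunit that reverses eIF2α phosphorylation. PPP1R15A rose with DSF by 3.68 in Huh1 (SE 0.18, adjusted p = 3e-09) and by 2.29 in Huh7, with the same SE and an adjusted p of 3.4e-07, and with 5-FU by 2.16 and 1.06. PPP1CB, a catalytic subunit gene, changed by -0.82 and -0.91 with DSF, and DELE1, a relay of mitochondrial stress, by 0.69 in Huh1. OMA1, the protease gene of that relay, changed by -1.17 and -1.85 with 5-FU, or -0.35 and -0.86 under spike-in scaling. With 5-FU, Huh1 had 4 of the list higher and 6 lower, and Huh7 had 3 and 8, or 10 and 3, and 11 and 2, under spike-in scaling. EIF2AK1, the gene for the heme-regulated kinase, changed by -0.55 with DSF in Huh7 (SE 0.09, adjusted p = 0.000133).

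Of 11 ATF and C/EBP factor genes, 3 were higher by call and 1 lower in DSF-treated Huh1, against 3 and 4 in DSF-treated Huh7. ATF3, an early stress factor, rose with DSF by 2.97 in Huh1 (SE 0.14, adjusted p = 1.9e-09) and by 1.59 in Huh7 (SE 0.14, adjusted p = 9.66e-07). With 5-FU ATF3 rose by 2.34 in Huh1. ATF5 rose with DSF in Huh7 by 1.23, and with 5-FU by 0.81 in Huh1 and 2.33 in Huh7. CEBPA, a hepatocyte factor, changed by -1.26 with DSF in Huh1, and NUPR1, a stress-induced chromatin protein gene, by 1.12 in Huh7. With 5-FU the list had 4 higher and 3 lower in each line, and 7 and 9 higher with 0 lower under spike-in scaling.

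Amino acid transporters gave 4 higher and 1 lower of 13 with DSF in Huh1, 3 and 3 in Huh7, near the shares of all probes called higher, and with 5-FU 4 and 4 in Huh1 and 1 and 8 in Huh7, the last being 7 and 2 under spike-in scaling. SLC3A2, the shared heavy chain of several transporters, rose with DSF by 1.36 in Huh1 (SE 0.13, adjusted p = 1.98e-06) and 0.83 in Huh7 (adjusted p = 0.000181). SLC7A11, the cystine carrier that supplies glutathione synthesis, changed with 5-FU by -2.93 in Huh7 (SE 0.16, adjusted p = 3.1e-09) and -1.03 in Huh1. Under spike-in scaling SLC7A11 changed by -1.95 and -0.21. SLC38A2 rose with DSF in Huh1 by 0.86. SLC7A5, which carries leucine, changed by -1.36 with 5-FU in Huh7, or -0.37 under spike-in scaling.

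The serine, glycine and one-carbon enzymes apart from PHGDH and PSAT1 gave more calls toward lower than higher in Huh1 with DSF. Of 13 genes 2 were higher by call and 8 lower there, against 4 and 3 in Huh7, or 2 and 5 in Huh1 and 1 and 5 in Huh7 under spike-in scaling. MTHFD2, a mitochondrial folate enzyme, rose with DSF in Huh1 by 1.25 (SE 0.10, adjusted p = 4.07e-07). With 5-FU in Huh7 MTHFD2 changed by -1.60 (adjusted p = 1.26e-08), or -0.62 under spike-in scaling. PSPH, the last enzyme of serine synthesis, changed with DSF by -0.61 in Huh7, and SHMT1, a cytosolic serine to glycine enzyme, by -0.86 and -0.71 in Huh1 and Huh7. SHMT2, its mitochondrial counterpart, changed with 5-FU by -1.12 and -1.05. Among 16 other amino acid synthesis genes, DSF gave 4 calls toward higher and 10 toward lower for Huh1, and 2 and 8 for Huh7. CTH, which makes cysteine, rose with DSF in Huh1 by 2.17 (SE 0.14, adjusted p = 3.37e-08). With 5-FU in Huh7 CTH changed by -2.32, or -1.33 under spike-in scaling. ASS1, which joins citrulline to aspartate, changed with DSF by -0.89 and -0.70. With 5-FU in Huh7 ASS1 changed by -2.13 and PYCR1, a proline synthesis gene, by -1.59, or -1.14 and -0.60 under spike-in scaling.

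Of 22 further stress-induced ATF4 targets tested, DSF gave 12 calls toward higher and 2 toward lower for Huh1, and 6 and 8 for Huh7, with medians of 0.25 and -0.15. With 5-FU, Huh1 had 10 called higher and 5 called lower, and Huh7 had 4 and 16, against 19 and 0, and 9 and 4, under spike-in scaling. FGF21, a hormone of nutrient stress made by liver, was not well above background on any Huh1 control array and was at least 17.0-fold higher with DSF (means of -2.43 and -7.49, adjusted p = 6.16e-09). GDF15, a stress hormone, rose with DSF by 2.79 in Huh1 (SE 0.15, adjusted p = 8.25e-09) and by 1.42 in Huh7 (SE 0.15, adjusted p = 5.62e-06). With 5-FU in Huh1 GDF15 rose by 3.00. STC2, a secreted stress glycoprotein gene, rose by 2.00 with DSF in Huh1. With 5-FU in Huh7 STC2 changed by -2.84, or -1.85 under spike-in scaling. CARS1, the cysteinyl-tRNA synthetase gene, changed by 1.25 with DSF in Huh1. With 5-FU in Huh7 CARS1 changed by -1.58, or -0.59 under spike-in scaling. The Huh7 change less the Huh1 change was called lower for 11 of the 22 and higher for 3 with DSF (19.2% and 21.1% of all probes). It was called lower for 16 and higher for 2 with 5-FU (17.8% and 18.8%). The list was chosen with earlier results of these data known, so these counts are descriptions.

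Genes of the other ER stress arms, controlled by ATF6 and XBP1, were the list in which DSF gave calls mostly toward higher in both lines. Of 16 genes Huh1 had 9 called higher and 2 called lower, and Huh7 had 12 and 1, or 8 and 0, and 6 and 1, under spike-in scaling. ERN1, the gene of the sensor IRE1, rose by 1.94 in Huh1, where 2 of 3 control arrays were well above background, and by 1.22 in Huh7. HERPUD1, which acts in ER-associated degradation, rose in Huh1 by 1.55 (SE 0.11, adjusted p = 1.06e-07), CRELD2 in Huh7 by 1.19 (SE 0.08, adjusted p = 7.84e-08), and the co-chaperone gene DNAJC3 by 1.00 and 0.87. With 5-FU, Huh1 had 2 called higher and 9 called lower, and Huh7 had 4 and 9, against 8 and 1, and 11 and 0, under spike-in scaling.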

How the data were processed

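Total RNA of EpCAM+ cells from 3 independent experiments a group was hybridized by the authors to 18 one-color Agilent arrays, 3 in each of 6 groups. Per the file headers, Feature Extraction 10.7.1.1 made the deposited intensity values, which are background-subtracted. A deposited table of 75th-percentile-scaled signal gave the same changes: 100% of its probes lay within 0.05 log2 of a constant from the scanner values. Unflagged spots of a probe were averaged and the array's 75th percentile was subtracted from log2 of the signal. Of 42327 probes with an unflagged spot on every array, 29894 passed the scanner's background test on each array of at least 1 group and were fitted with limma 3.58.1 (R 4.3.3) over all 18 arrays, with Benjamini-Hochberg adjustment. A second call rule also asked for 2-fold. P-values are two-sided. The number of arrays limits the precision, and signal over background stands in for depth: 59.9% to 71.1% of probes an array were well above background and 0 spots were saturated. The scripts were tested on simulated data.

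Gene names came from RefSeq accessions (25771 of 27134 matched), and a gene with several probes was read from its brightest. Named besides the 10 genes were up to 4 genes per list, drug and line with the largest change among those called without overlap of arrays, and 5 genes for likeness of pattern. The genes and lists were chosen with earlier results of these data known. Alternatives were normexp on the median signal (the files used here hold no mean signal), quantile, median and spike-in scaling, the deposited table, the filter, the groups fitted, slide and replicate blocks, probe averaging, a trended robust fit and each array left out. Same-numbered arrays deviated together by -0.09 to 0.10 and were not treated as pairs. Python 3.11.15, pandas 2.3.3 and matplotlib 3.10.9 served for sequences and plots.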

Additional observations from a re-analysis of the deposited data

Results flagged for a closer look

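The effect of a drug in Huh7 differed from that in Huh1 by limma's test of the difference (adjusted p under 0.05, 3 arrays a group) for 19 results. For DSF the differences, on the log2 scale and as the Huh7 change less the Huh1 change, were -0.40 for ATF4, -1.60 for ASNS, -1.06 for PHGDH, -2.61 for CHAC1, -1.07 for TRIB3, -2.21 for DDIT3, -2.78 for DDIT4, -1.62 for SESN2 and -0.87 for VLDLR. For 5-FU they were -0.50 for ATF4, -2.71 for ASNS, -0.76 for PSAT1, -1.08 for PHGDH, -3.74 for CHAC1, -1.67 for TRIB3, -2.22 for DDIT3, -3.02 for DDIT4, -0.80 for SESN2 and -1.04 for VLDLR. All of these have the same sign, and both sets use the same control arrays. As the genes were chosen with earlier results of these data known, these results are descriptions and not an independent test. In 8 genes (ATF4, ASNS, PHGDH, CHAC1, TRIB3, DDIT4, SESN2 and VLDLR) the DSF change was above 0 in Huh1 and below 0 in Huh7, with VLDLR at 0.05 in Huh1 and below 0 there under quantile and median scaling. DDIT3 was above 0 in both lines with DSF.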

How the results depend on the processing

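Scaling on the spike-ins changed these counts. For DSF it gave 0 genes lower in Huh1 and 0 higher in Huh7. For 5-FU it gave 9 higher with 0 lower in Huh1, and 2 higher with 5 lower in Huh7. For DSF against 5-FU it gave 2 higher with 2 lower in Huh1, and 2 higher with 6 lower in Huh7. Signs turned under it for 5-FU in Huh1 (ATF4 0.37, ASNS 0.64, PSAT1 0.24, DDIT4 0.42, VLDLR 0.39), 5-FU in Huh7 (ATF4 0.04, TRIB3 0.12, DDIT3 0.98, SESN2 0.70), the line difference for DSF (PSAT1 -0.26), DSF against 5-FU in Huh1 (ATF4 -0.05, PSAT1 -0.51, PHGDH -0.30, CHAC1 -0.29, TRIB3 -0.61, DDIT3 -0.22, VLDLR -0.21) and in Huh7 (ATF4 -0.43, PSAT1 -0.16, PHGDH -0.75, TRIB3 -0.48, DDIT3 -0.67, SESN2 -1.09, VLDLR -0.51). Scaling on the median gave 4 higher for DSF against 5-FU in Huh1, and 1 lower in control Huh7, with VLDLR -0.13 for DSF in Huh1, DDIT3 0.02 for 5-FU in Huh7 and TRIB3 -0.06 for DSF against 5-FU in Huh1. Quantile normalization gave VLDLR -0.02 for DSF in Huh1, PSAT1 -0.06 for the line difference for DSF and TRIB3 -0.23 for DSF against 5-FU in Huh1, and normexp correction gave VLDLR 0.00 and DDIT3 0.01 for the first and for 5-FU in Huh7. Only the groups compared gave 0 lower after DSF in Huh1 and 1 lower in control Huh7, and the mean of a gene's probes gave 1 lower in control Huh7 and VLDLR -0.06 for DSF in Huh1. Without both arrays that stood apart, a choice made after seeing the data, PHGDH was -0.13 for 5-FU in Huh1, DDIT3 0.05 for 5-FU in Huh7 and SESN2 -0.02 for DSF against 5-FU in Huh7. Leaving the slide 3 arrays out was also chosen after seeing the data. The causes were not tested.

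With each array left out in turn, 7 to 8 genes were higher and 0 to 1 lower after DSF in Huh1 (0 without Huh1 control replicate 2). After DSF in Huh7 1 was higher, and 4 to 6 were lower, 4 without control replicate 1 or 3 or DSF replicate 2 or 3, where ATF4 and PSAT1 lost their calls. After 5-FU 4 to 5 were lower in Huh1 and 8 to 9 in Huh7. PHGDH ran from -0.13 to 0.19 for 5-FU in Huh1, PSAT1 from -0.05 to 0.20 for the line difference for DSF, DDIT3 from -0.06 to 0.05 for 5-FU in Huh7, and SESN2 from -0.02 to 0.17 for DSF against 5-FU in Huh7. With replicate number as a block, the DSF counts stayed at 7 higher with 1 lower for Huh1, and at 1 higher with 6 lower for Huh7, and no call changed. With slide as a block, 4 genes were lower after DSF in Huh7 and 8 in the line difference. The deposited table changed no call.

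Each group had 3 arrays, and leaving 1 out leaves 2 against 3. Changes near background are compressed on arrays, and the dimmer VLDLR probe was seldom above it. Protein and translation of ATF4 were not measured here.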
